A study of Danio rerio with 4 samples.

Results

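The eyes of zebrafish were examined 24 h after the optic nerve had been cut, on the 3 two-colour arrays of 11 in the series that set an injured pool against a sham pool at that time. These 3 arrays were chosen by their names, which give the time and the operation of each pool and the dye it carried. Each array held 1 injured pool and 1 sham pool, so the comparison rests on 6 separate pools. The injured groups of the series were taken at 3, 24 and 168 h after surgery, with 3 arrays each, and a further 2 arrays set unoperated control eyes against each other. The fish were wild type (line zdr), bought from a pet store and kept on a light/dark cycle. In the injured fish the eye muscles were cut and the optic nerve was severed with the ophthalmic artery left intact. In the sham fish the same muscles were cut and the nerve was spared, so muscle damage, anaesthesia and handling were common to both. RNA came from the eye without lens and sclera and was pooled over several fish for each sample, which hides the spread between single fish. The labels call the pools of a time point biological replicates.

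The optic nerve holds the axons of the retinal ganglion cells, the output neurons of the retina. Fish, unlike mammals, regrow these axons and regain vision, and the first day after the cut is known as the time when the ganglion cell bodies turn on stress and growth genes before axons reach the brain. Ganglion cells are a small share of the cells of the eye. Photoreceptors, interneurons, Müller glia, pigment epithelium and the surface layers of the eye also contribute RNA. A pooled sample of eye tissue reads all of them together, and the share of each was not measured.

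The labels place injured RNA in Cy5 on every array, whereas the array names place sham RNA in Cy5 on 24 h arrays 1 and 2 and injured RNA in Cy5 on array 3. Over 14064 probes the authors' deposited table for 24 h correlated at r = 0.77 with the mean log2 ratio turned by the array names, at r = 0.89 when background was left in, and at r = -0.39 with plain Cy5 over Cy3. All values below therefore use the array names, with a positive log2 ratio for a higher level in the injured eye. Dye moved with many probes: 1555 differed between Cy5 and Cy3 over the 9 injured-against-sham arrays (limma, adjusted p under 0.05). Probes share the array and its dyes and are not replicates. Over them the injured-over-sham ratios of arrays 1 and 2 correlated at r = 0.27, those of arrays 1 and 3 at -0.28 and those of arrays 2 and 3 at -0.23. With the fitted dye effect of each probe taken off, the same pairs stood at -0.01, 0.16 and 0.13. That effect was fitted on the 9 arrays, these 3 among them, so taking it off shifts these correlations by construction. They are therefore no measure of agreement between the arrays. Arrays 1 and 2 share a dye orientation and array 3 has the other one, so agreement on all 3 arrays needs agreement across both orientations.

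**Figure D1:**
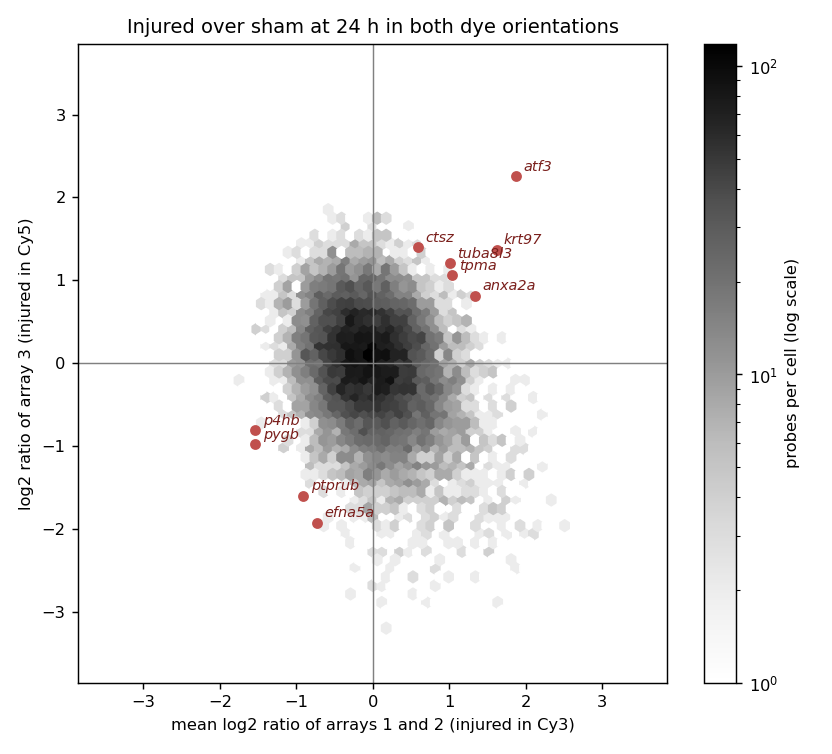
Each hexagon counts zebrafish probes by the mean log2 ratio of arrays 1 and 2 (x axis, injured RNA in Cy3) and the log2 ratio of array 3 (y axis, injured RNA in Cy5), injured over sham, with darker grey for more probes on a log scale. Most probes lie in a cloud around 0 that leans towards opposite signs, and the labelled genes, atf3 farthest out, lie in the quadrants where both orientations have the same sign.

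Each array has 544 empty positions, and a spot was called detected in a channel if it was brighter there than 95% of them. At 24 h the share of the 14067 zebrafish probes above that limit was 48.8%, 49.0% and 34.6% in the injured channels of arrays 1, 2 and 3, and 24.4%, 25.5% and 49.6% in the sham channels. The higher share followed Cy3 on each array. In all 6 channels 2178 probes were above the limit, and 4419 were above it in none. A probe or gene is called detected below when it passed on at least 2 of 3 arrays on each side, which held for 3669 probes. With 1 probe per gene, the brightest, 5097 genes were measured and 1769 of them detected. Of the markers fixed for each cell type, 3 of 3 measured rod markers (rho, gnat1, saga) were detected. Of 4 measured cone markers 3 were detected (arr3a, opn1sw1, opn1sw2) and gnat2 was not. Of 4 measured ganglion cell markers only rbpms2b was detected, and of 4 measured lens markers none was, with cryaa and gja8b above the limit in no channel.

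No probe passed the test at 24 h. In limma 0 of 14065 probes (0.00%) had an adjusted p under 0.05, the smallest being 0.265 for atf3, and 703 (5.00%) had an unadjusted p under 0.05. Of these 313 (2.23%) were higher and 390 (2.77%) lower in injured eyes. The fit left 5 residual degrees of freedom and a median standard error (SE) of 0.34 on the log2 scale, so the number of arrays limits the precision of every value below. By direction alone, 1501 of 14064 probes (10.7%) were higher in the injured eye on all 3 arrays and 1639 (11.7%) were lower. Among 3667 detected probes the shares were 13.1% and 12.8%, and among 5095 genes 11.5% and 11.7%. The fitted value was above 0 for 2542 and below 0 for 2554 of 5096 genes. Of detected genes 230 of 1768 (13.0%) were higher and 231 (13.1%) lower on all 3 arrays. Beyond 1.5-fold on each array, 9 detected genes (0.509%) were higher and 6 (0.339%) lower. Genes and gene groups are therefore described by their values on the arrays, each set beside these shares. Besides the genes that a rule picked, ascl1a, calb2b, ckbb, dcn, gnat1, hspb1, lcp1, ndufv1, opn1sw2, pde6ha, rpl18, rpl27a and spi1b were singled out after their values were seen.

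Among detected genes with 1 direction on all 3 arrays, atf3 had the largest difference. It encodes a transcription factor induced by cell stress and known as a marker of neurons whose axons were cut. Normalised log2 intensities of atf3 were 12.33, 11.43 and 12.44 in the injured pools, against 10.14, 9.87 and 10.18 in the sham pools of arrays 1, 2 and 3. The lowest injured pool stood above the highest sham pool. The log2 ratios were 2.2, 1.55 and 2.26, the fit gave 2.01 ± 0.33 (SE), which is 4.03-fold, and the adjusted p was 0.265 in limma. At 3 h atf3 stood at 0.05 ± 0.33 and at 168 h at 1.2 ± 0.33. On the arrays of unoperated eyes its log2 ratio was 0.22 and 0.24.

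**Figure D2:**
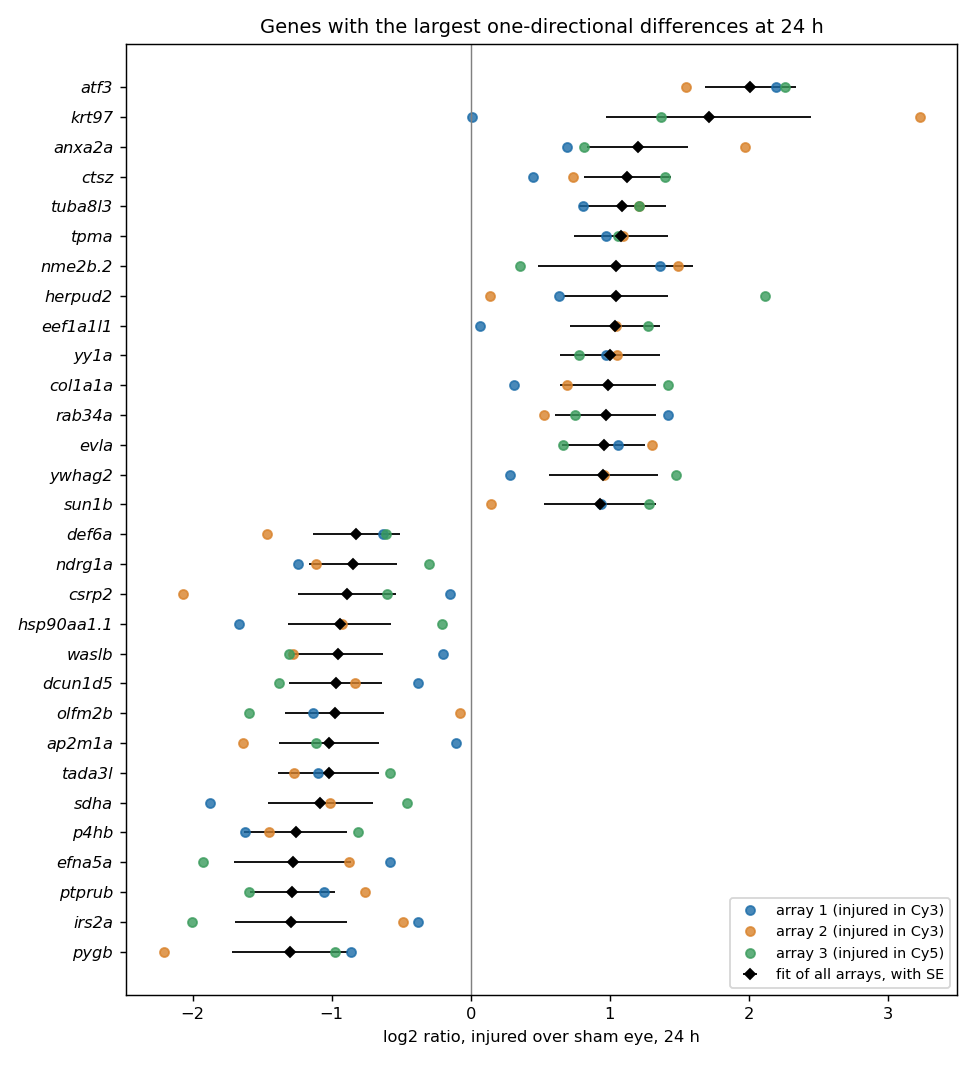
Log2 ratio of injured over sham eye at 24 h (x axis) for the 15 detected genes with the largest and the 15 with the smallest fitted value among those with 1 direction on all 3 arrays, coloured dots for the arrays and diamonds with bars for the fit and its SE. The 3 dots of atf3 lie between 1.55 and 2.26, whereas those of krt97 spread between 0.01 and 3.23.

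Other factors that respond early to a stimulus were mixed. The list of immediate early and stress transcription factors had 5 of 27 genes higher on all 3 arrays (18.5%) and 3 lower (11.1%), against 11.5% and 11.7% of all genes, and a median of 0.07. Among its 13 detected genes 2 were higher and 1 lower. The AP-1 subunit jun, a partner of atf3, had log2 ratios of 1.47, 1.05 and 0.31 and a fit of 0.71 ± 0.31. It passed the detection limit in 2 injured channels and 1 sham channel, and its dye effect was -0.71 (adjusted p = 0.024 in limma). Its relative junbb had 0.84, 0.47 and 0.28, with 1 further detected probe at -0.15 ± 0.32. The early response gene egr1 had -1.33, -0.41 and 0.16 for its brightest probe, so its arrays disagreed. Its other detected probe was higher on all 3 arrays, at 0.81, 0.43 and 0.43 (fit 0.26 ± 0.43).

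Axon regeneration and growth cone genes did not shift as a group, although 6 of 26 were higher on all 3 arrays (23.1%) and 2 lower (7.69%). Their median was 0.01, with medians of 0.08, -0.20 and 0.13 on the 3 arrays. Beside atf3 and jun, the higher genes included ascl1a, a proneural factor that Müller glia use when fish retina regenerates, at 0.89, 2.02 and 0.26 (fit 0.97 ± 0.41), and the growth-associated protein gap43. Of the 6 higher genes only atf3 was detected, so ascl1a was not. The probe of gap43, a standard marker of regrowing axons, gave 0.34, 0.62 and 0.77 (fit 0.64 ± 0.36) but passed the detection limit in 1 injured channel and no sham channel. The cytokine feedback inhibitor socs3a had 0.42, 1.11 and -0.01, and the neuronal factor sox11a 0.10, -0.35 and -0.22.

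Cytoskeletal genes were represented among the largest differences by tubulin, tropomyosin and actin regulators. The alpha tubulin tuba8l3 had log2 intensities of 8.34, 10.24 and 9.74 in the injured pools, against 7.54, 9.03 and 8.53 in the sham pools. Within each array the injured pool was the higher one, by 0.81, 1.21 and 1.21, while pools of different arrays overlapped. The fit was 1.09 ± 0.31, or 2.13-fold, and its other probes stood at -0.46 ± 0.46 and 0.10 ± 0.38, both near the background. A second alpha tubulin, tuba8l4, was steadier across probes: its 6 detected probes lay between 0.33 and 0.91, and 3 of them were higher on all 3 arrays. Over the whole list of 12 tubulins, 2 were higher (16.7%) and 1 lower (8.33%) on all 3 arrays, with a median of -0.02. All genes had shares of 11.5% and 11.7%. The tropomyosin tpma, which binds actin in muscle, had log2 intensities of 10.18, 10.23 and 9.97 in injured pools, against 9.21, 9.13 and 8.91 in sham pools. These groups did not overlap, the ratios of 0.97, 1.1 and 1.06 were close to each other, and the fit was 1.08 ± 0.34, although the authors' deposited table gives 0.22. The actin polymerisation factor evla had ratios of 1.06, 1.3 and 0.67 (fit 0.96 ± 0.30), and moesin (msna), which ties actin to the membrane, had 0.23, 0.62 and 1.3 (fit 0.88 ± 0.29, with 1 other detected probe at -0.19 ± 0.35). In the other direction the actin nucleation promoter waslb had -0.20, -1.28 and -1.31, and the LIM protein csrp2 had -0.15, -2.07 and -0.60.

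Ribosomal protein genes were the group with the most members in 1 direction. Of 72 genes, 71 of them detected, 39 were higher in injured eyes on all 3 arrays (54.2%) and 1 was lower (1.39%), against 11.5% and 11.7% of all genes. The fitted values of 68 lay above 0, with a median of 0.40 against -0.00 over all genes. The medians on arrays 1, 2 and 3 were 0.17, 0.50 and 0.27. Between the unoperated pools they were -0.02 and -0.18, and their median dye effect was 0.22. Without array 2 the median was 0.25, and without array 3 it was 0.61. None of the 72 had an adjusted p under 0.05 in limma, and 3 had an unadjusted p under 0.05, all higher, against 2.49% of all genes.

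The large subunit gene rpl8 had log2 intensities of 12.11, 12.43 and 12.13 in injured pools, against 11.51, 11.67 and 11.50 in sham pools. Its pools did not overlap, and its fit was 0.69 ± 0.29, or 1.61-fold, with 4 of 4 detected probes higher on all 3 arrays (fits between 0.30 and 0.69). rpl27a had 5 of 5 detected probes higher on all 3 arrays, between 0.43 and 0.63, and rpl18 had 4 of 4 above 0, between 0.44 and 0.52. Probes of a gene share the pools, so they add no replicates. The small subunit gene rps9 had ratios of 0.17, 0.46 and 0.89, and the acidic stalk protein rplp1 had 0.17, 0.74 and 0.61. Probes disagreed for rpl5a, where the brightest gave 0.95, 0.93 and 0.42 (fit 0.83 ± 0.37) and another detected probe gave -0.84 ± 0.35.

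Translation factors, which work on the ribosome, did not share the direction of its proteins. The list of initiation and elongation factors had 6 of 60 genes higher on all 3 arrays (10%), 4 lower (6.67%) and a median of 0.02. Within it eef1a1l1, which delivers aminoacyl-tRNA, had ratios of 0.07, 1.05 and 1.27 (fit 1.04 ± 0.32), a dye effect of 0.72 (adjusted p = 0.027 in limma) and a second detected probe at 0.67 ± 0.31. The translocation factor eef2b had -0.07, 0.38 and 0.98 for its brightest probe, so array 1 differed in sign, and the fits of its 3 detected probes lay between 0.61 and 0.75.

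**Figure D3:**
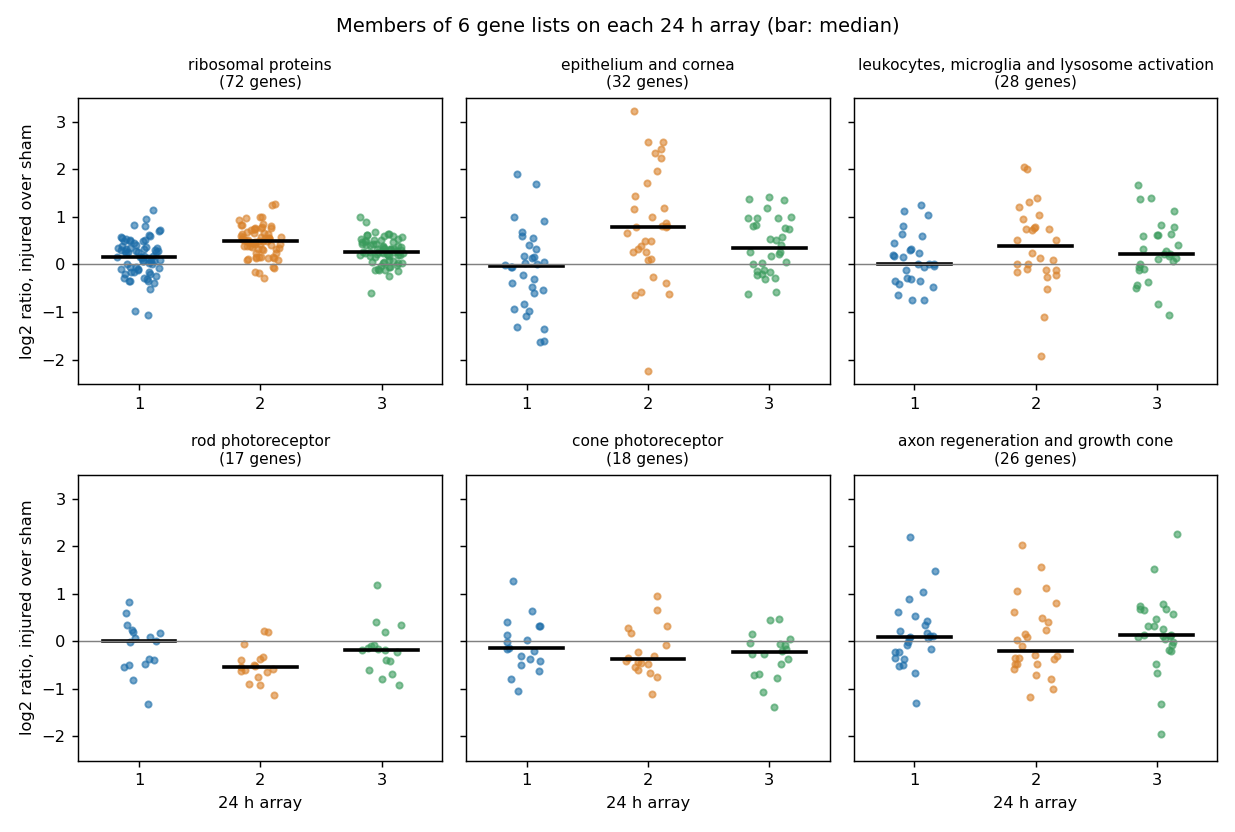
Log2 ratio of injured over sham eye (y axis) of every member of 6 gene lists on 24 h arrays 1, 2 and 3 (x axis), with 1 dot per gene and a bar at the median. Ribosomal protein genes lie mostly above 0 on all 3 arrays, while epithelial genes have medians of -0.03, 0.78 and 0.34 and rod genes -0.01, -0.54 and -0.18.

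Protein folding genes of the endoplasmic reticulum included members on both sides. In the list of chaperones 9 of 60 genes were higher on all 3 arrays (15%) and 4 lower (6.67%), with a median of 0.11. hspa5, the main chaperone of that compartment, had log2 intensities of 13.91, 14.32 and 13.98 in injured pools, against 13.61, 13.23 and 13.46 in sham pools. The injured pools all stood above the sham pools, the fit was 0.60 ± 0.31, and its 5 detected probes lay between 0.16 and 0.66. The disulfide isomerase pdia3 had ratios of 0.16, 0.74 and 0.69. The related isomerase p4hb lay the other way, with log2 intensities of 8.29, 8.32 and 9.96 in injured pools, against 9.91, 9.76 and 10.77 in sham pools. Its ratios of -1.62, -1.45 and -0.81 gave a fit of -1.26 ± 0.37, and its dimmer probe stood at -0.13 ± 0.31. The cytosolic chaperone hsp90aa1.1 had -1.66, -0.92 and -0.21 (fit -0.94 ± 0.37), whereas the small heat shock protein hspb1 had 0.42, 0.61 and 0.49.

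Proteasome subunits, which degrade tagged proteins, had 7 of 39 genes higher on all 3 arrays (17.9%) and 3 lower (7.69%), with a median of 0.15. Among them psmd8 had a fit of 0.55 ± 0.32 and psmb2 one of 0.54 ± 0.31, while psma5 stood at -0.60 ± 0.38.

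In the list of surface epithelium and cornea 24 of 32 genes had a fitted value above 0, against 2542 of 5096 genes measured. On both arrays 2 and 3, 18 were higher (56%), against 22.7% of all genes. On arrays 1 and 3, 8 were higher (25%), against 21.9%, and on arrays 1 and 2, 12 (37.5%), against 30.2%. On all 3 arrays 6 were higher (18.8%) and 0 lower, with a median of 0.43 and array medians of -0.03, 0.78 and 0.34. Without array 2 the median was 0.12, and between unoperated pools it was -0.00 and -0.30. The keratin krt97 had log2 intensities of 11.87, 12.39 and 12.15 in injured pools, against 11.86, 9.16 and 10.78 in sham pools. Its injured pools were alike, and its sham pools differed widely, the array 1 sham pool standing level with the injured ones. The fit was 1.71 ± 0.74, and 0.69 without array 2. The annexin anxa2a, a membrane-binding protein, had log2 intensities of 10.95, 12.01 and 11.25 in injured pools, against 10.26, 10.03 and 10.43 in sham pools. It did not overlap between the groups, with a fit of 1.2 ± 0.36 (2.3-fold) at 24 h, -0.06 at 3 h and 1.40 at 168 h, and with 0.75 at 24 h without array 2. The keratins krt8 and krt4 had 0.05, 0.86, 0.97 and -0.05, 2.43, 0.84 on arrays 1, 2 and 3. Desmoplakin (dspa), a desmosome protein, had 1.00, 0.99 and 0.51, and anxa2a and dspa lay well above 0 on array 1, where krt8 and krt4 did not. Of 6 measured epithelial markers 4 were detected (icn, krt5, krt8, krt97), and cldne was above the limit in no channel. The log2 of the summed intensity of all 6 measured markers ranged over 13.35 to 13.91 in injured pools and 12.15 to 13.43 in sham pools. The part of surface tissue carried into the samples was not tested.

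Matrix genes included col1a1a, the main fibrillar collagen chain, at 0.31, 0.69 and 1.42 (fit 0.99 ± 0.35), the matrix signalling protein ccn1 at 0.80, 0.68 and 1.17 (fit 0.92 ± 0.32), and the proteoglycan decorin (dcn) at 2.46, 0.70 and 0.55 (fit 1.18 ± 0.41). The protease inhibitor timp2a stood lower, with log2 intensities of 9.67, 9.32 and 9.53 in injured pools, against 10.43, 9.93 and 10.10 in sham pools. Of the 34 matrix genes 4 were higher and 2 lower on all 3 arrays, shares of 11.8% and 5.88% beside 11.5% and 11.7% of all genes. dcn passed the detection limit in 3 injured channels and 1 sham channel. The other probes of col1a1a, above the limit in no channel, stood at -0.07 ± 0.30 and 0.08 ± 0.42.

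Genes of leukocytes, microglia and lysosomes had members in 1 direction only among those that agreed on all arrays. Of 28 genes 7 were higher on all 3 arrays (25%) and 0 lower, and the median was 0.20, with array medians of 0.02, 0.38 and 0.23. Among the 16 detected genes of this list 3 were higher and 0 lower, beside 13.0% and 13.1% of all detected genes. The lysosomal protease ctsz had log2 intensities of 10.59, 10.86 and 10.16 in injured pools, against 10.14, 10.13 and 8.76 in sham pools. All injured pools stood above all sham pools, by a small margin, and the fit was 1.13 ± 0.31 (2.18-fold), beside a dye effect of 0.80 (adjusted p = 0.013 in limma). The antigen-presentation chaperone cd74a had ratios of 0.17, 1.21 and 1.12, and its relative cd74b had -0.48, 2.06 and 1.37. The lipid carrier apoeb, which microglia and Müller glia both express, had 0.33, 0.10 and 0.80. The myeloid transcription factor spi1b had 0.02, 1.40 and 0.82 and the leukocyte actin-bundling protein lcp1 had 0.65, 0.52 and 0.23, and neither was above the limit in more than 1 sham channel. Of 4 measured leukocyte markers coro1a alone was detected and lyz was above the limit in no channel. The log2 of the summed intensity of all 4 ranged over 10.32 to 11.13 in injured pools and 10.28 to 10.94 in sham pools.

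Most photoreceptor genes had a fitted value below 0, 14 of 17 rod genes and 15 of 18 cone genes, against 2554 of 5096 genes measured. Of 17 rod genes 7 were lower on all 3 arrays (41.2%) and 0 higher, and of 18 cone genes 6 were lower (33.3%) and 0 higher. The rod median was -0.27, with -0.01, -0.54 and -0.18 on the arrays, and the cone median was -0.24, with -0.15, -0.38 and -0.24. None had an adjusted p under 0.05 in limma, and 1 gene of each list had an unadjusted p under 0.05 and was lower, against 2.53% of all genes. Without array 2 the rod median was -0.08 and the cone median -0.18, whereas without array 3 they were -0.59 and -0.47. The cause of these lower values was not tested. In a pool of eye tissue, fewer photoreceptors and less RNA per photoreceptor are readings, among others, that cannot be told apart.

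The rod phosphodiesterase subunit pde6a, which cuts cGMP in the light response, had log2 intensities of 11.88, 12.59 and 12.98 in injured pools, against 12.38, 13.49 and 13.67 in sham pools. The injured pool was the lower one on each array, by 0.49, 0.90 and 0.68, while pools of different arrays overlapped. Its fit was -0.74 ± 0.30, and its other detected probe stood at -0.22 ± 0.42. Transducin, the G protein of the rod, had its alpha subunit gnat1 at -0.39, -0.60 and -0.60 and its beta subunit gnb1a at -0.48, -0.91 and -0.19. For gnb1a 3 of 3 probes lay below 0, and the authors' deposited table gives 0.32, the opposite sign. The transducin-binding protein pdcb had -0.83, -1.14 and -0.11. The disc rim protein rom1b had -0.01, -0.38 and -0.92. Rhodopsin (rho), the rod pigment, had a brightest probe with saturated pixels on all 3 arrays (46%, 50% and 34% of the spot in the more saturated channel), so no direction is read from it. The fits of its 4 detected probes, that one included, lay between -0.37 and -0.12.

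In cones guca1c, which activates guanylate cyclase when calcium is low, had ratios of -0.15, -0.41 and -1.07 (fit -0.81 ± 0.38) and a dye effect of -0.81 (adjusted p = 0.033 in limma). The arrestins, which shut off the light-activated pigment, gave -0.31, -1.11 and -0.16 for arr3b and 0.13, -0.76 and -0.69 for arr3a. The inhibitory subunits of the cone phosphodiesterase had 4 of 4 detected probes below 0 for pde6hb (-0.42 to -0.32, the brightest partly saturated on arrays 1 and 2) and 5 of 5 for pde6ha (-0.47 to -0.19). The ultraviolet opsin opn1sw1 had -0.63, -0.66 and 0.47 for its brightest probe and -0.16, -0.39 and -0.14 for its other detected probe. The blue opsin opn1sw2 had -0.02, -0.08 and -0.03. The ultraviolet opsin was thus of mixed sign in 1 probe and lower on all 3 arrays in the other, and the blue opsin lay near 0. With median centring in place of loess the fitted values of rho, pde6ha and opn1sw2 turned positive, at 0.09, 0.08 and 0.06.

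**Figure D4:**
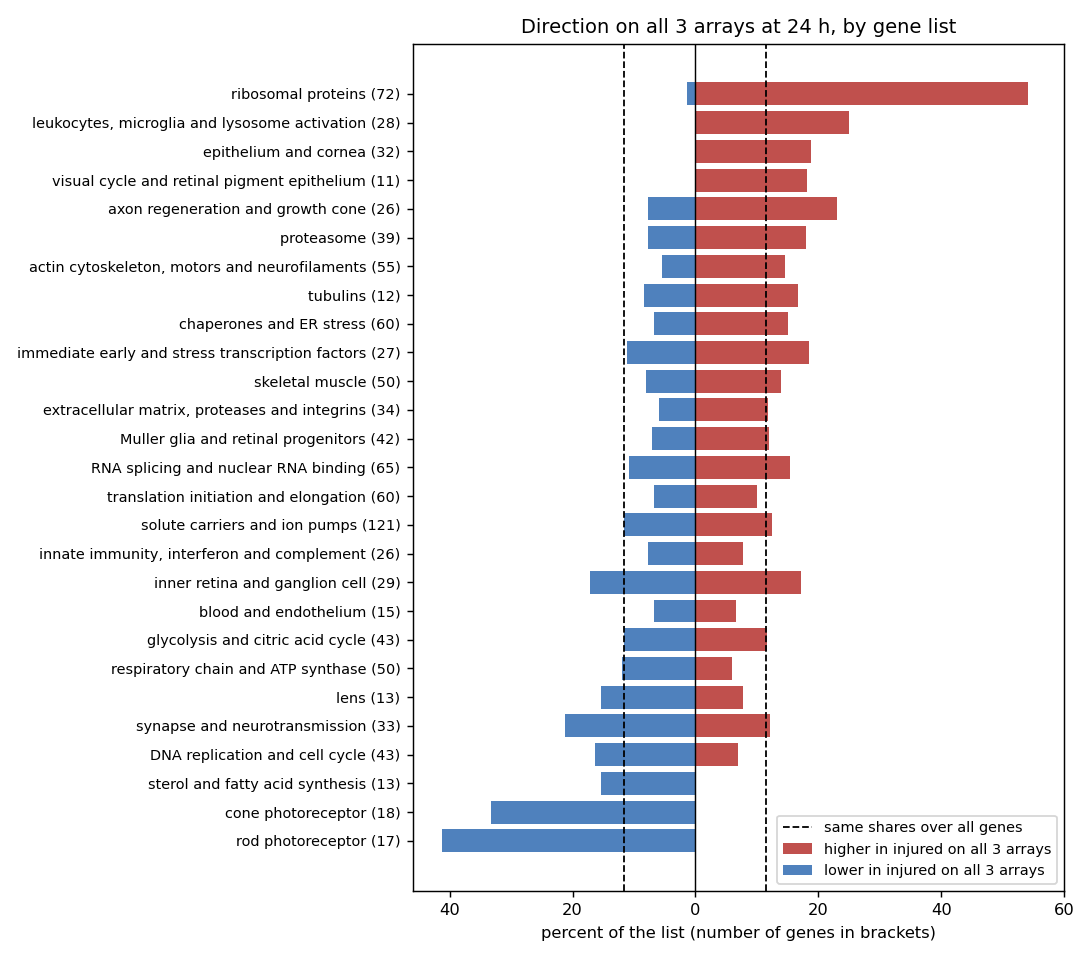
Share of each gene list described (x axis, percent of its genes) that was higher (red, right) or lower (blue, left) in injured eyes on all 3 arrays at 24 h, with the number of genes in brackets and dashed lines at the shares over all genes, 11.5% and 11.7%. Ribosomal proteins reach 54.2% on the higher side, and rod and cone genes 41.2% and 33.3% on the lower side.

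The pigment epithelium and visual cycle genes, which recycle the chromophore of the opsins, were uneven. The retinaldehyde-binding protein rlbp1b had -0.34, 2.31 and 1.17 (fit 1.15 ± 0.45, and 0.41 without array 2). The isomerase rpe65a had -0.65, 1.07 and 0.08 for its brightest probe, and its 3 detected probes lay between 0.30 and 0.96, but without array 2 its fit was -0.28. The list had 2 of 11 genes higher on all 3 arrays (18.2%), 0 lower and a median of 0.08.

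Ganglion cell and inner retina genes were split, with 5 of 29 higher and 5 lower on all 3 arrays (17.2% each) and a median of -0.17. rbpms2b, the ganglion cell marker that was detected, had log2 intensities of 10.50, 11.12 and 9.85 in injured pools, against 11.03, 11.42 and 10.24 in sham pools. It was lower on each array by a small amount, with a fit of -0.47 ± 0.32, and its pools overlapped. The ganglion cell factor isl2b had 0.20, -0.92 and -2.54 (fit -1.21 ± 0.39, and -0.39 without array 3), and it passed the detection limit in 1 injured and 2 sham channels. The calcium-binding protein calb2b (calretinin) of amacrine and ganglion cells had -2.02, -1.39 and -0.22 and was above the limit in 1 injured and 3 sham channels. The transcription factor pax6b had -1.62, -1.52 and 0.42, so array 3, with the other dye orientation, differed in sign. Of 33 synaptic genes 4 were higher and 7 lower on all 3 arrays, with 13 fitted values above 0 and 20 below. At an unadjusted p under 0.05 in limma, 2 of them were higher and 0 lower. The vesicle fusion protein snap25b was among the 7 lower ones, at -1.02, -0.27 and -0.17. The solute carrier slc6a1b was among the 4 higher ones, at 1.11, 0.24 and 1.07 (fit 0.85 ± 0.30). The other probes of slc6a1b, none of them detected, lay between -1.07 and -0.09. Müller glia and progenitor genes had a median of 0.01, with 5 of 42 higher (11.9%) and 3 lower (7.14%), and the glial glutamine synthetase glula had 0.24, -0.39 and 0.24.

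At the lower end the receptor phosphatase ptprub, a regulator of cell adhesion, had log2 intensities of 8.42, 8.94 and 8.60 in injured pools, against 9.48, 9.70 and 10.20 in sham pools. It did not overlap between the groups, and its fit of -1.28 ± 0.30 (2.43-fold lower) had an adjusted p of 0.956 in limma. The guidance ligand efna5a, which repels retinal axons, had log2 intensities of 7.99, 8.15 and 6.41 in injured pools, against 8.56, 9.03 and 8.33 in sham pools, with a fit of -1.28 ± 0.42. The insulin pathway adaptor irs2a had -0.38, -0.49 and -2.01 (fit -1.3 ± 0.40), with a dye effect of -1.01 (adjusted p = 0.015 in limma). The secreted olfactomedin olfm2b had -1.13, -0.08 and -1.60. The endocytic adaptor ap2m1a had -0.11, -1.64 and -1.11 for its brightest probe, and its 4 other probes ranged over -0.70 to 0.68.

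Respiratory chain genes had a fitted value below 0 in 35 of 50, against 2554 of 5096 genes measured. Their median was -0.12, with array medians of -0.17, -0.09 and -0.05. On all 3 arrays 3 were higher (6%) and 6 lower (12%), against 11.5% and 11.7% of all genes. The succinate dehydrogenase subunit sdha had -1.88, -1.01 and -0.45 (fit -1.08 ± 0.38), the complex I subunit ndufv1 had -0.55, -0.49 and -0.29, and the cytochrome oxidase subunit cox6b1 lay the other way at 0.27, 0.86 and 0.94. Glycolysis and citric acid cycle genes had 5 of 43 in each direction on all 3 arrays (11.6%) and 26 fitted values below 0. Citrate synthase (cs) had -0.38, -0.87 and -0.20, with 3 of 3 detected probes below 0. The glycogen phosphorylase pygb had log2 intensities of 8.54, 7.70 and 7.04 in injured pools, against 9.41, 9.91 and 8.02 in sham pools. The brain creatine kinase ckbb had 9 of 9 detected probes below 0, between -0.83 and -0.03.

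Cell cycle genes had 3 of 43 higher (6.98%) and 7 lower (16.3%) on all 3 arrays. Their fitted values were above 0 in 23 and below 0 in 20, with a median of 0.05 that kept its sign in 8 of 13 alternatives. The replication clamp pcna had -0.28, 0.78 and 0.61. The growth arrest gene gadd45aa passed the detection limit in the sham channel on 2 arrays and in no injured channel, so no fold is given. Its fit had an unadjusted p of 0.000866 and an adjusted p of 0.956 in limma. Its value in the authors' deposited table is 0.22, of opposite sign.

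Skeletal muscle was cut in both operations. Of its 50 genes 7 were higher (14%) and 4 lower (8%) on all 3 arrays, with a median of 0.02. The shares over all genes were 11.5% and 11.7%. Among the 13 detected genes of this list 4 were higher and 2 lower, beside 13.0% and 13.1% of all detected genes. The tropomyosin tpma, described above, was 1 of those 4 (fit 1.08 ± 0.34). The cardiac and skeletal actin actc1b had 0.48, 0.73 and 0.52, and the skeletal actin acta1b 0.17, 0.46 and -0.05. Of 6 measured muscle markers acta1b and mylpfa were detected, while ckma, pvalb1 and tnnt3a were above the limit in no channel. The remaining lists, namely splicing factors, solute carriers, innate immunity, lens, blood vessels, sterol synthesis and actin genes, had medians between -0.14 and 0.15.

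Other detected genes at the upper end were the transcription factor yy1a, the nucleoside diphosphate kinase nme2b.2, the ubiquitin-like herpud2, the small GTPase rab34a, the 14-3-3 protein ywhag2 and the nuclear envelope protein sun1b. For yy1a log2 intensities were 11.80, 12.32 and 11.45 in injured pools, against 10.83, 11.27 and 10.67 in sham pools. The groups did not overlap, with a fit of 1.01 ± 0.36, and its 5 other probes, none of them detected, lay between -0.23 and 0.60. herpud2 had 0.63, 0.14 and 2.12 and stood at 0.31 without array 3, and nme2b.2 had 1.36, 1.49 and 0.35. At the lower end tada3l, a subunit of histone acetyltransferase complexes, had -1.1, -1.27 and -0.58, with its other probe at 0.47 ± 0.34 and 0.13 in the authors' deposited table. The neddylation factor dcun1d5, the stress-responsive ndrg1a and the guanine exchange factor def6a had fits of -0.97 ± 0.34, -0.85 ± 0.31 and -0.82 ± 0.31. The other probe of dcun1d5 stood at 0.20 ± 0.37 and those of ndrg1a between 0.02 and 0.10, none of them detected. The value of def6a in the authors' deposited table is 0.025. For other leading genes the authors' deposited table lies nearer to 0 than the fit, as for irs2a (-0.19), ap2m1a (-0.036), herpud2 (0.26) and rab34a (0.19).

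Above the empty positions in all 3 injured channels and in no sham channel stood 26 of 5097 genes, and 0 genes were the reverse. Of the 26 genes 11 were higher on all 3 arrays, beside 11.5% of all genes, and 24 had a fold above 1 as computed below. The genes were picked by these same intensities, which favours a higher injured value. Neither count nor the folds are therefore separate evidence of a difference. Injured RNA was in Cy3, the channel with more detected spots, on 2 of the 3 arrays, so dye and injury cannot be told apart in this count. The fold set the mean of the injured pools against the sham mean. A sham value under the lowest normalised value of a detected sham spot on its array was raised to that value. For ctnnb2 and pdcd10a none was raised, so their fold is the plain ratio of means. These folds keep the dye effect and are not strict lower bounds. They were 1.94 for the sorting nexin snx12, 1.75 for the GDP-fucose transporter slc35c1 and 1.62 for the beta-catenin ctnnb2. For pdcd10a the fold was 1.55 and for the mesenchymal factor twist1a 1.53. Adjusted p-values of these genes lay between 0.956 and 0.99 in limma. Ratios were 1.5, 1.3 and 0.76 for snx12, 0.92, 0.17 and 0.80 for pdcd10a and 1.64, -0.10 and 0.92 for twist1a. The other probe of slc35c1 stood at -0.86 ± 0.41. The other probes of ctnnb2, none of them detected, lay between -0.51 and 0.27, the lowest of them below 0 on all 3 arrays. The proton pump subunit atp6v1ba, among the smallest p-values, was above the limit in 1 injured and 0 sham channels. Of the lower genes with the smallest p-values, fech was above it in no channel and rab40b and plscr3b in 1 sham channel each.

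Genes with several probes allow a further look at how firm a direction is. Of 1804 genes with several probes, 53.7% had the same sign in their 2 brightest probes at 24 h. Of 345 genes with several detected probes the share was 63.8%, and the values correlated across genes at r = 0.37. Among 123 genes with 3 or more detected probes, 40 had all above 0, 18 all below 0 and 65 mixed signs. Ribosomal protein genes made up 43 of the 123 and 22 of the 40.

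The 24 h values stood between those of the other times for several groups. The ribosomal median was 0.05 at 3 h, 0.40 at 24 h and 0.52 at 168 h, the rod median -0.21, -0.27 and -0.74, the cone median -0.07, -0.24 and -0.54, and the leukocyte median 0.09, 0.20 and 0.47. Other groups did not follow that order. The epithelial median was 0.09, 0.43 and 0.36 at these times, and the chaperone median -0.01, 0.11 and 0.00. These are separate pools with no sham pool in common. Of 586 genes higher on all 3 arrays at 24 h, 112 were also higher on all 3 at 168 h, which is 19.1% of the 24 h genes and 19.7% of the 568 at 168 h, and 50 were lower there (8.53% and 8.2%). Over all genes 11.1% were higher and 12.0% lower on all 3 arrays at 168 h. Of 594 genes lower at 24 h, 108 were also lower at 168 h (18.2% and 17.7%). With 3 h, 69 higher genes were shared (11.8% of the 24 h genes and 14.8% of the 465 at 3 h, which are 9.12% of all genes), and 91 lower genes (15.3% of the 24 h genes and 16.8% of the 543 at 3 h, which are 10.7% of all genes). In the tests of the difference itself, 0 of 14065 probes (0.00%) differed between 24 h and 3 h or between 168 h and 24 h at an adjusted p under 0.05 in limma, with 590 (4.19%) and 603 (4.29%) at an unadjusted p under 0.05. For atf3 the difference between 24 h and 3 h was 1.96 ± 0.45 (unadjusted p = 0.000606, adjusted p = 0.999 in limma). evla stood at 0.96 at 24 h and near 0 at 3 h and 168 h (0.04 and 0.06), and p4hb at -1.26 against 0.05 and -0.22.

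**Figure D5:**
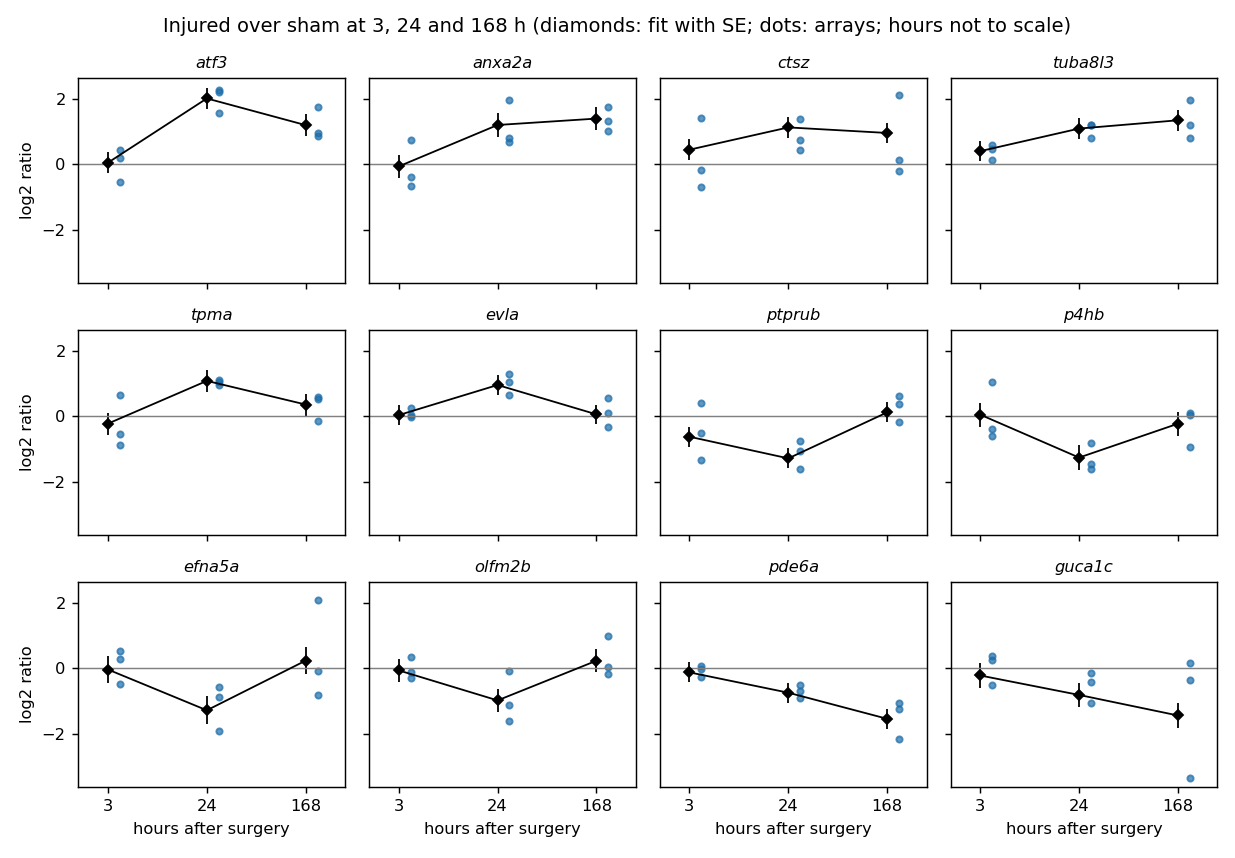
Log2 ratio of injured over sham eye (y axis) at 3, 24 and 168 h (x axis, not to scale) for 12 genes, with dots for single arrays and diamonds with bars for the fit and its SE. atf3 is near 0 at 3 h, at 2.01 at 24 h and at 1.2 at 168 h, while pde6a and guca1c are lower at 168 h than at 24 h.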

How the data were processed

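Each array carried 14784 spots in 32 blocks: 14067 zebrafish probes, 173 Arabidopsis controls and 544 empty positions. Per the file headers, the deposited scanner files hold foreground and background intensity of each spot in Cy5 (635 nm) and Cy3 (532 nm), not normalised, and another column of spot flags. Per the submitters' processing notes the authors used limma, version not given, and their deposited table gives each spot 1 log2 value for a time point. How it was centred is not given in the sources used here.

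Background was corrected with normexp (offset 50) and each array normalised by loess, with control, empty and bad spots at weight 0 (limma 3.58.1, R 4.3.3). One fit took the 9 arrays of injured and sham pools, with an injury term for each time and a common dye effect, followed by eBayes and Benjamini-Hochberg adjustment. The unoperated arrays stayed outside the fit. Log2 ratios of single arrays keep the dye effect, while fitted values do not. Intensities of single pools came from quantile normalisation of the average intensity. Dye was taken from the array names. The number of arrays limits the precision, and saturated spots (23 to 38 per array at 24 h) were kept. The scripts were tested on simulated data.

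Genes were named through the probes' accessions (7755 probes, RefSeq names of assembly GRCz12tu), symbols in the file (174), older symbols brought up to date (468) or the file's name (165), and 5505 probes stayed unnamed. The brightest probe, by mean intensity over the 9 arrays, stood for each gene. Named were the 15 detected genes at each end among those with 1 direction on all 3 arrays, the smallest p-values, up to 4 detected genes per list by p-value and up to 2 known leading genes, and genes detected on 1 side only. The members and the 28 gene lists were chosen with earlier results of these data known. Symbols that matched a list's pattern without belonging to it were removed after values were seen. One list and its results are not reported here. Alternatives varied background correction, normalisation, dye effect, arrays, detection and probe choice.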

Additional observations from a re-analysis of the deposited data

Results flagged for a closer look

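Of the genes named, 4 had all 3 arrays on 1 side of 0 at 24 h and all 3 on the other side at another time. The LIM protein gene csrp2 stood at -0.89 at 24 h and 0.50 at 168 h, the growth arrest gene gadd45aa at -1.50 and 0.30, and citrate synthase (cs) at -0.47 and 0.08. The proton pump subunit atp6v1ba stood at 1.04 at 24 h and -0.56 at 3 h. The test of each difference between times in limma did not pass, with adjusted p-values of 0.996 for csrp2, gadd45aa and cs and 0.999 for atp6v1ba. No injured channel of gadd45aa and no sham channel of atp6v1ba passed the detection limit at 24 h, so their values give no measured size and their change of sign between times is not established.

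Control probes of Arabidopsis, which no comparison uses, gave signal. In Cy3 24.9%, 20.8% and 30.6% of the 173 lay above the empty positions on 24 h arrays 1, 2 and 3, against 4.62%, 2.89% and 7.51% in Cy5. Their part in the detection shares was not tested.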

How the results depend on the processing

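In limma 0 probes passed an adjusted p of 0.05 at 24 h under every alternative run, and the adjusted p of atf3 ranged from 0.052 without background correction to 0.9998 with the 24 h arrays alone, beside fits of 1.82 to 2.23. The number of probes at an unadjusted p under 0.05 was 368 with no dye term in the fit and 188 among detected probes, against 703. With the 24 h arrays alone, also fitted with no dye term, it was 348. Probes higher on all 3 arrays numbered 480 among detected probes and 2967 to 4072 when 1 array was left out and only 2 had to agree. Those lower numbered 469 and 2994 to 4049. Beyond 1.5-fold on all arrays, 42 probes were higher, against 9 without background correction and 125 with an offset of 0. The count was 65 with the fitted dye effect taken off the ratios, 13 among detected probes and 281 to 960 with 1 array left out. Likewise 77 were lower, against 8 without background correction, 184 with an offset of 0, 50 with print-tip loess, 15 among detected probes and 313 to 619 with 1 array left out. Requiring 2 arrays in place of 3 and testing fewer probes change these counts by construction, and for the other settings the cause was not tested.

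For 107 genes 1323 values were recomputed, and 93 genes kept their sign throughout. Opposite signs came from the authors' deposited table for tada3l (0.13), def6a (0.025), gadd45aa (0.22), plscr3b (0.13), gnb1a (0.32) and rho (0.017), and from median centring for rho (0.092), pde6ha (0.083), gapdhs (0.072), aldocb (0.028) and opn1sw2 (0.063). Averaging all probes of a gene turned glula (-0.011) and slc35c1 (-0.016). With 1 array left out, lyz ranged over -0.11 to 0.83, rpe65a over -0.28 to 0.86, glula over -0.16 to 0.24 and pde6ha over -0.52 to 0.023. For these genes the cause was not tested. The medians of the ribosomal (0.25 to 0.63), rod (-0.59 to -0.04), cone (-0.47 to -0.13), epithelial (0.12 to 0.72) and leukocyte lists (0.16 to 0.42) kept their sign in all 13 alternatives, while that of the axon regeneration list ranged over -0.16 to 0.16.

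Each ratio sets an injured pool against a sham pool on 1 array, so the fit was paired by array. The array numbers pair nothing further. Statements that pools did or did not overlap compare intensities between arrays and set this pairing aside. Slide and scan date as blocks were not run, since the files used here give neither. Probes near the empty positions are limited by signal: 4419 of 14067 were above them in no channel at 24 h.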
